A study of Mus musculus with 11 samples.

Results

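The amino acid transporter genes of the mouse were followed through early reprogramming of fibroblasts. They are the genes whose symbol is Slc1a, Slc3a, Slc6a, Slc7a, Slc36a, Slc38a or Slc43a with a number, and 59 of the 22180 genes named by a probe set with 1 symbol met this rule. A gene with several probe sets was represented by the one of highest mean over the 11 arrays. Total RNA was hybridised to Affymetrix whole-transcript arrays, 1 array per group. Embryonic fibroblasts heterozygous for rtTA, a doxycycline-dependent activator at the Rosa locus, were infected at passage 4 with doxycycline-driven Klf4, Oct4, Myc and Sox2, and day 0 was the day doxycycline was added. Cells sorted as CD49d+, CD73+ or CD73- and unsorted cells were taken at day 6 and at day 9, which gives 8 reprogramming arrays. In the labels both CD49d+ and CD73+ cells are termed poised, the CD73- ones non-poised, and all 3 sorted populations went through the sorter in a double sort. The 3 controls were uninfected Rosa-rtTA +/- fibroblasts (MEF, passage 4), SC4, a line of partially reprogrammed cells at passage 10, and V6.5 embryonic stem cells (ESC) at passage 11. SC4 and ESC are 1 line each. SC4 was grown in fibroblast medium with more calf serum and ESC in a medium with serum replacement and LIF, all with non-essential amino acids, so cell type and medium cannot be told apart where these lines are compared. No group has a replicate, and the labels do not say whether day 6 and day 9 came from separate cultures, so p-values measure only how far a difference agrees between arrays. The unsorted cultures can include the sorted cells.

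Amino acids cross membranes through carriers that mostly exchange one amino acid for another or move it along with sodium or protons. The Slc7 light chains that form heterodimers need a partner of the Slc3 family to reach the surface, while the Slc7 carriers of arginine and lysine, called cationic amino acid transporters, work alone. Slc38 carriers take up glutamine and other small neutral amino acids, Slc1 carriers take up glutamate or exchange neutral amino acids, and Slc36 and some Slc38 members act at the lysosome. Dividing cells and stem cells are known for a large demand for glutamine, leucine, cystine and other amino acids. Several of these genes are known targets of the amino acid response, in which the factor ATF4 binds a composite C/EBP-ATF element, and of Myc, which binds E-boxes. The 7 families also hold carriers of other solutes, such as creatine (Slc6a8), taurine (Slc6a6), monoamines (Slc6a2, Slc6a3, Slc6a4) and, in the case of Slc43a3, purine nucleobases.

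The promoter windows of RefSeq (build GRCm38.p6, 250 bases before to 50 bases after a start) were searched on both strands for the core of the ATF4 element, TGATGNAA, and for the E-box CACGTG, which reads the same on both strands. Slc7a2, Slc7a3, Slc6a8, Slc6a15, Slc1a5, Slc7a5, Slc38a1 and Slc43a3, among others, had no window and were not searched. RefSeq gave 61 windows for 42 of the 59 genes. TGATGNAA was present in 5 of these windows (8.2%), against 3.97% of all 32851 windows, and CACGTG in 9 (14.8%), against 7.15%. By gene this is 4 (9.52%) and 9 (21.4%) of 42 genes, against 4.51% and 8.09% of all 27025 genes. These differences in share were not tested. The Slc7a7 windows at chr14:54417653-54417952 and chr14:54417895-54418194 overlap and share a TGATGNAA match, and its other windows had none. The windows with TGATGNAA belong to Slc1a4, Slc6a21, Slc7a7 and Slc7a11. Those with CACGTG belong to Slc1a6, Slc1a7, Slc6a3, Slc6a16, Slc7a14, Slc36a1, Slc38a5, Slc38a7 and Slc43a1. Of these 9 genes, Slc38a5 was higher and Slc43a1 lower in poised than in CD73- cells. The others did not pass a test given below or could not be tested. A match shows only these letters, not a site in use. The windows of 3 genes are shown, the matches being in capitals. Slc38a5 is shown for its E-box alone, and Slc7a11 did not pass any test given below. Slc38a5, a glutamine and histidine carrier with the largest poised difference of the 38 tested members, has an E-box that begins at position -30, counted from the start site (chrX:8271131-8271430, + strand). Slc7a11, the cystine carrier, has TGATGNAA on both strands, at positions -66 and -47 from the start (chr3:50443564-50443863, - strand). Slc7a7, an exchanger of cationic for neutral amino acids, has it at positions -141 and -1 in the window at chr14:54417895-54418194 (- strand).
Slc38a5: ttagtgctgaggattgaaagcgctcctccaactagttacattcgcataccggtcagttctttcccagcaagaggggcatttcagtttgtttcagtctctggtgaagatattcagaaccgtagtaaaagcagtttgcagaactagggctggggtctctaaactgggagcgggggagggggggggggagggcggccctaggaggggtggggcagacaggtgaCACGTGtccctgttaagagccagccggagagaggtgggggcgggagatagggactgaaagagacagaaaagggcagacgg
Slc7a11: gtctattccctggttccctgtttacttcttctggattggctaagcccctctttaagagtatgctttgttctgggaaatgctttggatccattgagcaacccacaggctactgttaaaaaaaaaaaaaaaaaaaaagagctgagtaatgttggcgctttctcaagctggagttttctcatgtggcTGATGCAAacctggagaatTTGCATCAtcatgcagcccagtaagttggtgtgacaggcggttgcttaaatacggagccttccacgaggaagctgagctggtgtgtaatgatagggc
Slc7a7: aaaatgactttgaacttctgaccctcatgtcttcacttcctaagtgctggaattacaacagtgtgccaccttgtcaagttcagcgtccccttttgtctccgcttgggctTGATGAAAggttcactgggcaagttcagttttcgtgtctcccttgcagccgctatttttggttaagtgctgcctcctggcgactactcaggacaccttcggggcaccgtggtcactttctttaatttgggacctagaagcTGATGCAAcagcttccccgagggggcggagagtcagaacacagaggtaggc

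Intensities were deposited on a linear scale with 100 as the lowest value, a floor that stands for any dimmer signal. Of the 59 genes, 17 were at the floor on all 11 arrays and 4 were above it only on control arrays, which leaves 38 that could be tested among the reprogramming arrays. The 4 were Slc6a7, Slc6a13, Slc7a14 (182.5 in SC4) and Slc38a3 (573.1 in ESC). Of the 38, 9 stayed under 150 on every reprogramming array (Slc1a6, Slc1a7, Slc6a3, Slc6a17, Slc6a21, Slc7a4, Slc7a10, Slc36a2 and Slc38a8), and 29 reached 150 on at least 1. A total of 26 genes lay above the floor on all 11 arrays. By family, 10 of 15 Slc7 genes, 9 of 11 Slc38, 7 of 17 Slc6, 5 of 7 Slc1, 3 of 4 Slc36, 3 of 3 Slc43 and 1 of 2 Slc3 genes were tested. The 17 genes at the floor included the kidney and intestinal carriers Slc3a1, Slc7a9, Slc6a18 and Slc6a19 and the neuronal or glial carriers Slc1a2, Slc6a4, Slc6a5 and Slc6a11. The floor hides low levels, so these genes may be expressed below it. Slc3a2, the partner of the Slc7 light chains, was far above the floor on all arrays, from 4067 in day 9 CD73+ cells to 5947 in ESC, whereas Slc3a1, the other partner, was at the floor throughout. Slc7a9, the light chain that pairs with Slc3a1, was at the floor as well.

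As context for the series, the sort markers Nt5e (CD73) and Itga4 (CD49d) were high in both poised populations and low in CD73- cells. At days 6 and 9 Nt5e had 3438 and 3658 in CD73+, 2828 and 2704 in CD49d+ and 331.9 and 292.4 in CD73- cells. Itga4 had 1859 and 1588 in CD49d+, 1082 and 1206 in CD73+ and 152.7 and 169.6 in CD73- cells. Of 10 fibroblast markers (Col1a1, Thy1, Pdgfra and others), 10 were above the floor in MEF, 9 in ESC, 4 in SC4 and 7 to 10 on the reprogramming arrays. Their summed intensity was 44430 in MEF, 3310 in ESC and 1533 in SC4, against 3129 to 13040 on the reprogramming arrays. Of 10 stem cell markers, 10 were above the floor in ESC, 2 in MEF and 2 to 4 on the reprogramming arrays, where Zfp42, Esrrb and Sox2 were at the floor. Pou5f1 had 122.7 in ESC, within its range of 107.1 to 142 on the reprogramming arrays, with 105.2 in MEF and 143.2 in SC4. Its probe set thus counts as above the floor on every array and did not set ESC apart. Whether the probe sets of Pou5f1 and Sox2 detect the doxycycline-driven factors was not tested. The stem cell sum was 1140 and 1493 in CD49d+, 1203 and 1421 in CD73+, and 1490 and 1986 in CD73- cells at days 6 and 9. ESC had 26000. Each gene at the floor adds 100 to such a sum. Utf1 made most of the difference between the sorted populations, with 224.6 to 551 on poised arrays against 574 and 1012 in CD73- cells. Nanog had 167.1 in day 9 CD73- cells and was at the floor on all poised arrays. Pou5f1 went the other way at day 9, with 142 in CD49d+, 117.6 in CD73+ and 107.1 in CD73- cells. The fibroblast sum was 8532 and 5016 in CD49d+, 4209 and 3129 in CD73+, and 6484 and 8503 in CD73- cells at days 6 and 9. Its members disagreed. Postn had 2042 and 1263 in CD49d+, 252.8 and 349.7 in CD73+ and 2046 and 3496 in CD73- cells. Dcn was higher in both poised populations at each day, with 1516 and 1286, 2320 and 1414, and 1398 and 1231 in the same order. Col1a1 and Thy1 were higher in CD49d+ than in CD73- cells at day 6 and lower at day 9. The neural marker sum (Map2, Nefl, Stmn2 and others) was 8119 and 10010 in CD49d+ and 7909 and 8964 in CD73+, compared with 5155 and 6819 in the CD73- population. Of the neural markers Stmn2 and Nefl made this difference, and Nefm and Dcx were at the floor on all arrays. Map2 and Tubb3 went the other way, lower in both poised populations than in CD73- cells at each day. Tubb3 had 187.4 to 242.7 on poised arrays against 429.6 and 290.7, and Map2 739.2 to 898.2 against 825.9 and 1119. The endothelial sum was 1705 and 1630 in CD49d+, 2112 and 2253 in CD73+ and 966.9 and 1222 in CD73- cells. Tek, at 1055 to 1673 on poised arrays against 459.1 and 633.5, carried most of this difference. Cldn5 was also higher in both poised populations at each day. Pecam1 went the other way at day 9, with 188.8 in CD73-, 139.6 in CD73+ and the floor in CD49d+ cells. Emcn was at the floor throughout. Among 7 macrophage and blood markers 1 to 2 were above the floor on each array, and Ptprc, Csf1r, Adgre1, Itgam and Tyrobp were at the floor on all 11. The epithelial sum ran from 1673 to 3843 on the reprogramming arrays (9416 in ESC) and the skeletal muscle sum from 668.9 to 1207. The part of these sums in the differences given here was not tested, and in cell populations fewer cells of a type and less RNA per cell cannot be told apart.

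Poised cells (the mean of CD49d+ and CD73+) were higher than CD73- cells for Slc38a5, Slc7a3, Slc7a7 and Slc43a2 and lower for Slc7a2, Slc6a15, Slc38a4, Slc43a1, Slc6a8, Slc7a1 and Slc7a6. Of the 38 transporter genes tested, 4 were higher and 7 lower (limma, Benjamini-Hochberg adjusted p under 0.05 over 13313 genes). Among all genes tested 7.16% passed as higher and 4.85% as lower, 12.0% in all. The median log2 difference of the 38 was -0.0290, against -0.0102 over all genes tested. At an unadjusted p under 0.05 stood 16 of the 38, against 30.5% of all genes. Under quantile normalization 3 were higher and 9 lower. The arrays did not overlap for 5 genes that were higher on all 4 poised arrays than on both CD73- arrays (14.5% of all genes) and for 14 that were lower (18.4%). The spread in this test is how far the 4 populations, unsorted cells included, disagree in their change between day 6 and day 9. It is moderated by a prior over all genes and is not that of replicate cultures.

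Slc38a5 was the transporter gene with the largest difference. Its intensities at days 6 and 9 were 1355 and 1595 in the CD49d+ population, 787 and 1297 in CD73+, 341.1 and 515.8 in unsorted and 132.8 and 201.2 in CD73- cells. MEF had 109.2, ESC 134.6 and SC4 1392. The 4 poised arrays and SC4 were thus high, MEF, ESC and CD73- cells were low, and unsorted cells lay between at both days. The poised difference was 7.46-fold (log2 2.90 ± 0.109, SE, limma, adjusted p = 0.00243), with 2.96 at day 6 and 2.84 at day 9. Leaving out any 1 of the 8 arrays kept the call, with adjusted p from 0.00306 to 0.0298.

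Slc7a3, a cationic amino acid transporter, had 1715 and 3376 in CD49d+, 1566 and 2261 in CD73+, 659.1 and 1192 in CD73- and 797.8 and 1242 in unsorted cells at days 6 and 9. MEF had 181.9, SC4 3055 and ESC 1505. All reprogramming arrays were above MEF, and the 4 poised arrays were above both CD73- arrays. The poised difference was 2.40-fold (log2 1.26 ± 0.106, limma, adjusted p = 0.00648), 1.31 at day 6 and 1.21 at day 9. Without a term for the day its adjusted p was 0.104.

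The other cationic transporters went the opposite way. Slc7a2 had 204.4 and 176.7 in CD49d+, 301.6 and 191.5 in CD73+ and, far higher, 794.2 and 713.6 in CD73- cells, with 543.3 and 288.2 in unsorted cells. In MEF it had 563.2, in SC4 407.6 and in ESC 163.1. The 4 poised arrays thus lay below MEF and both CD73- arrays above it. Its difference of -1.82 ± 0.177 log2 units (3.52-fold lower, limma, adjusted p = 0.00845) was the lowest of the 38. Slc7a1, the general arginine carrier, had 1769 to 2043 on the 4 poised arrays and 2453 and 2174 in CD73- cells, a small difference (1.25-fold lower, log2 -0.32 ± 0.0635, limma, adjusted p = 0.0398).

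Among the light chains that pair with Slc3a2, Slc7a7 and Slc7a6, both exchangers of cationic for neutral amino acids, differed in opposite directions. Slc7a7 had 358.8 and 737.1 in CD49d+, 244.7 and 556.7 in CD73+, 154.7 and 200.6 in CD73- and 196.9 and 302.1 in unsorted cells, with 320.3 in MEF, 1349 in SC4 and 1856 in ESC. CD73- cells were below MEF at both days and only the day 9 poised arrays and day 6 CD49d+ lay above it. Poised cells were 2.47-fold above CD73- cells (log2 1.31 ± 0.182, limma, adjusted p = 0.0184), with 0.94 at day 6 and 1.68 at day 9. Slc7a6 was 1.22-fold lower (log2 -0.29 ± 0.063, limma, adjusted p = 0.0477), with 1865 to 2250 on poised arrays and 2464 and 2499 in CD73- cells. Slc7a5, the large neutral amino acid carrier for leucine, had 4198 to 5028 on poised arrays against 5885 and 5425, without passing (-0.25 ± 0.0719, adjusted p = 0.0846). Slc3a2 stood at -0.11 ± 0.0515 (adjusted p = 0.233) and Slc7a8, a neutral amino acid carrier, at 0.0029 ± 0.11. Slc7a10 was above the floor only in day 6 CD73- cells (113.8), day 9 unsorted cells (129.6) and MEF (106.2).

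Slc7a11, which brings in cystine for glutathione synthesis, was higher on all 4 poised arrays without passing. It had 273.5 and 342.5 in CD49d+, 243.8 and 642.1 in CD73+, 189 and 218.5 in CD73- cells and 201 and 223.1 in unsorted cells. The day 9 CD73+ array stood apart from the other poised arrays, and the difference was 0.45 at day 6 and 1.10 at day 9 (0.78 ± 0.28, limma, adjusted p = 0.139). MEF had 251.6, ESC was at the floor and SC4 had 4031, at least 40.3-fold above ESC. The probe set not used for Slc7a11 was at the floor on every array but SC4, where it had 253.1.

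Of the neutral amino acid carriers outside Slc7, Slc6a15, a sodium-coupled carrier of branched-chain amino acids and proline, was lower in poised cells. It had 461.8 and 441 in CD49d+, 767.9 and 472.4 in CD73+, 1504 and 1081 in CD73- and 1087 and 623.1 in unsorted cells. MEF at 105 and ESC at 135.5 were near the floor and SC4 had 312.5, so that every reprogramming array was above all 3 controls. The poised difference was 2.45-fold (log2 -1.29 ± 0.16, limma, adjusted p = 0.0139). Slc38a4, a carrier of neutral amino acids and an imprinted gene, had 1998 and 1924 in CD49d+, 2236 and 1820 in CD73+, 3167 and 3457 in CD73- and 2599 and 2194 in unsorted cells. It was 1.66-fold lower in poised cells (log2 -0.73 ± 0.102, limma, adjusted p = 0.0183). Its controls were far apart, with 1121 in MEF, 4714 in ESC and the floor in SC4.

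The facilitated carriers of branched-chain and aromatic amino acids, Slc43a1 and Slc43a2, moved in opposite directions at low intensities. Slc43a1 had 204.6 to 277 on poised arrays and 356.3 and 364.5 in CD73- cells (log2 -0.59 ± 0.11, limma, adjusted p = 0.0332). Slc43a2 had 223.8 to 279 on poised arrays and 188.4 and 179.8 in CD73- cells (0.49 ± 0.105, adjusted p = 0.046), and did not pass under quantile normalization (adjusted p = 0.0639). The creatine carrier Slc6a8 had 1358 and 1121 in CD49d+, 1624 and 1651 in CD73+ and 1865 and 1982 in CD73- cells (-0.44 ± 0.0928, adjusted p = 0.0458). MEF, at 3062, was above every other array for this gene. The glial glutamate carrier Slc1a3 was at the floor on 3 of the 4 poised arrays and had 110.8 in day 6 CD73+ cells, against 235.9 and 217.7 in CD73- cells. Its fitted difference of -1.14 ± 0.258 did not pass (limma, adjusted p = 0.0523, with 0.00997 to 0.242 over the alternatives), and the floor makes it a bound in part.

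**Figure D1:**
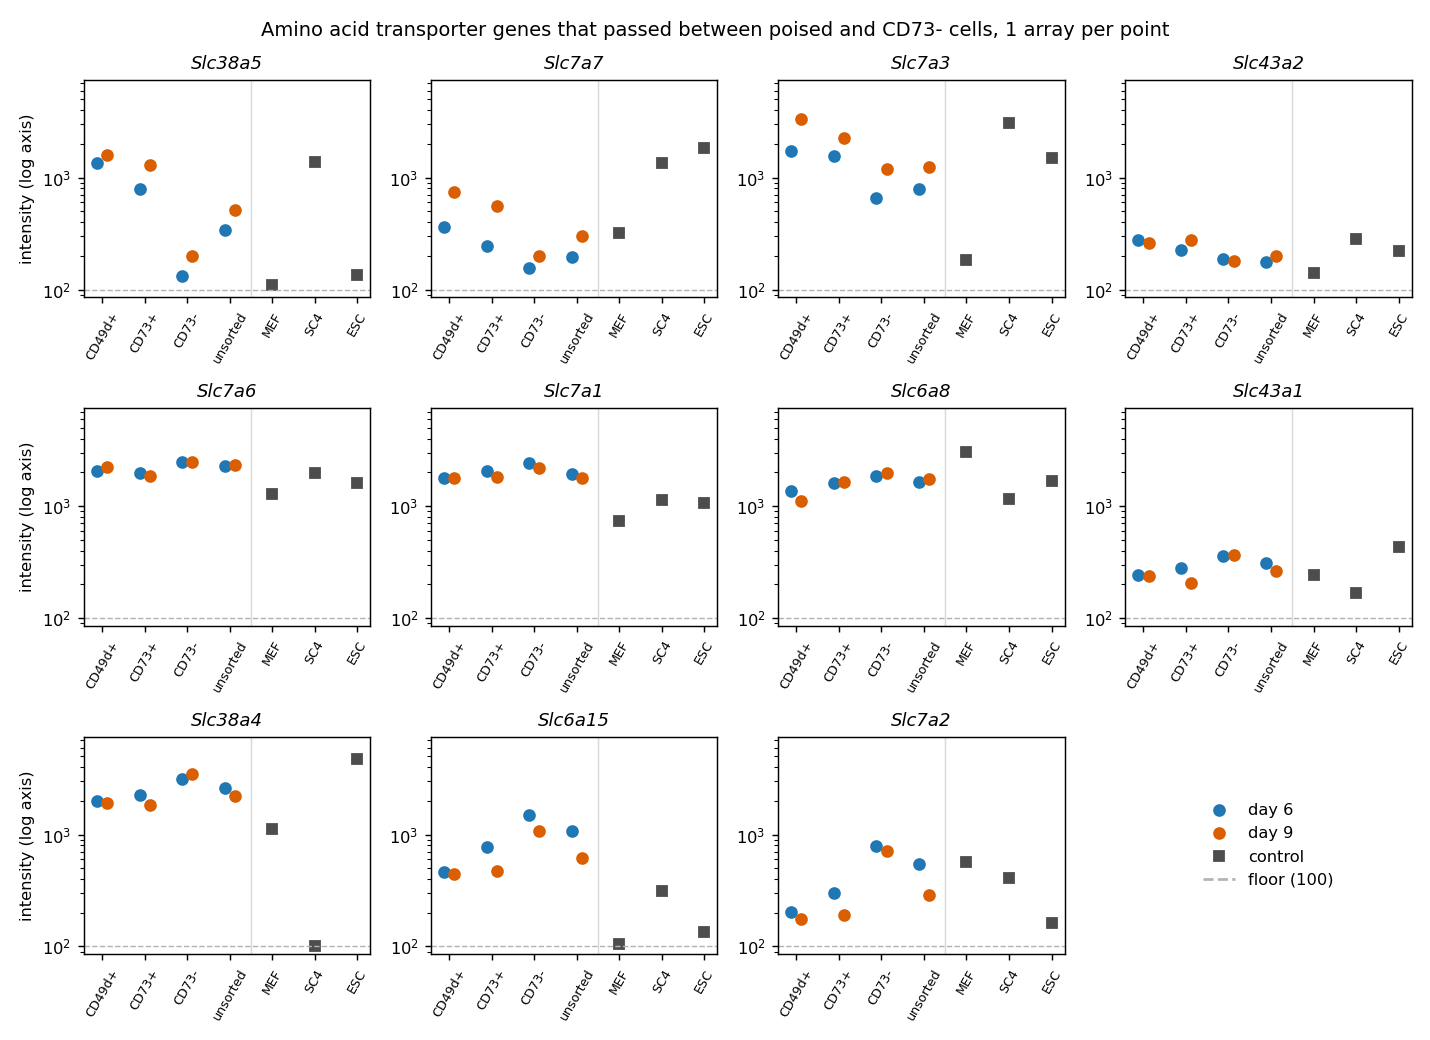
Intensity (log axis) of the 11 transporter genes that passed between poised and CD73- cells, on each of the 11 arrays. Circles are the reprogramming populations at day 6 and day 9, squares are controls and the dashed line is the floor of 100. Slc38a5 runs from 132.8 in day 6 CD73- cells to 1595 in day 9 CD49d+ cells among the reprogramming arrays.

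**Figure D2:**
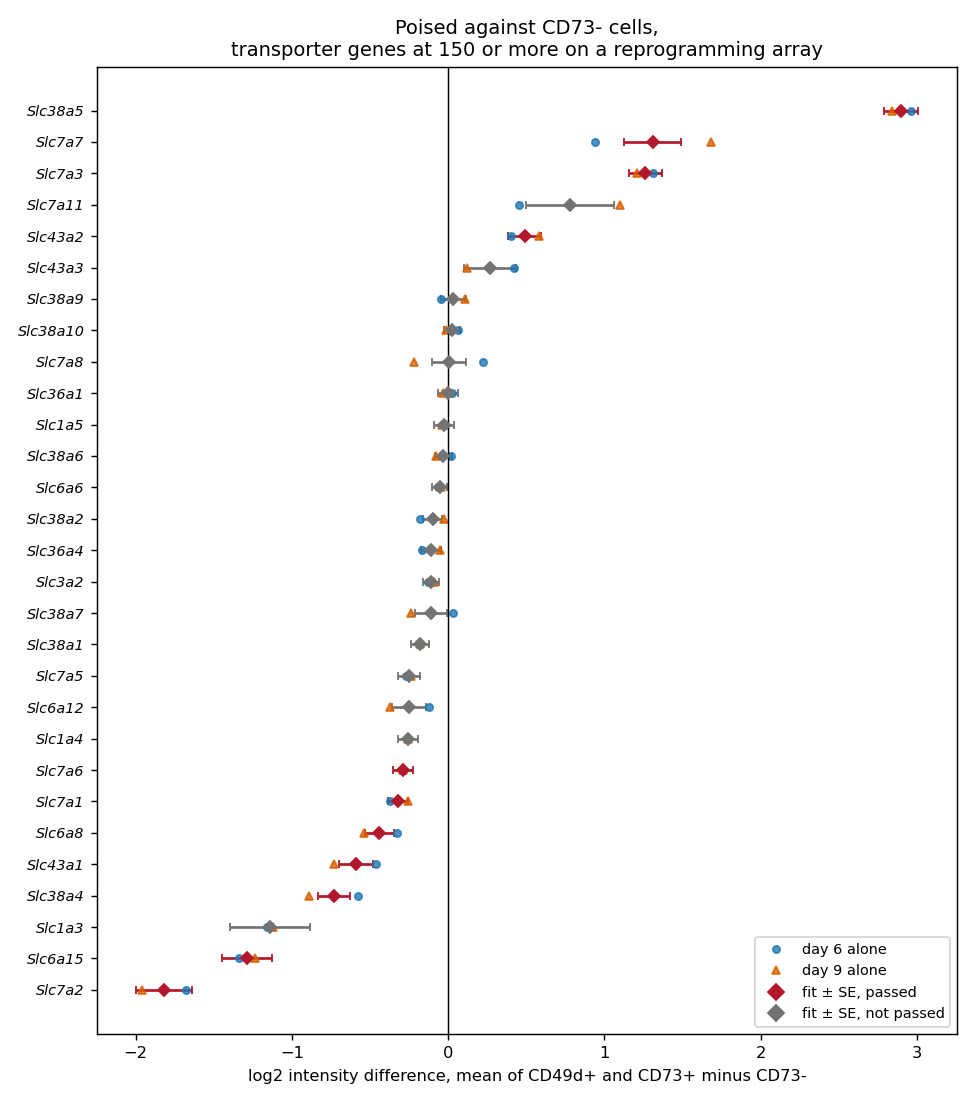
Log2 intensity difference of poised minus CD73- cells for the 29 tested genes that reached 150 on a reprogramming array. Diamonds are the limma fit with its SE (red where the adjusted p is under 0.05), circles and triangles are day 6 and day 9 alone. Slc38a5 stands at 2.90 and Slc7a2 at -1.82.

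Most of these calls rest on few arrays. Without the day 6 CD73- array 2 transporter genes passed, Slc38a5 and Slc7a2, and the other 9 had adjusted p from 0.0509 to 0.22. Without day 9 CD73- also 2 passed, Slc38a5 and Slc7a3, and Slc7a2 had 0.0507, the others up to 0.23. Without day 9 CD73+ 3 passed, Slc38a5, Slc7a2 and Slc7a3, with 0.0524 to 0.158 for the rest. Without day 6 CD49d+ 7 passed, and without day 6 or day 9 unsorted cells 7 as well, in place of 11 (8 without day 6 CD73+, 13 without day 9 CD49d+). Slc43a2, Slc7a1 and Slc7a6 passed in 1 of the 8 such fits, Slc43a1 and Slc6a8 in 2, Slc38a4, Slc6a15 and Slc7a7 in 5, Slc7a2 and Slc7a3 in 7 and Slc38a5 in 8. None of the 11 turned its direction in these fits or under the other 7 alternatives.

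Each sorted poised population was also set against CD73- cells, the same CD73- arrays serving both comparisons. In CD73+ against CD73- cells 3 genes rose and 4 fell, where 5.06% and 2.94% of all genes did (8.00% in all). These were Slc38a5 (6.18-fold, log2 2.63 ± 0.126), Slc7a3 (1.09 ± 0.122) and Slc7a7 (1.07 ± 0.21), which rose, and Slc7a2 (-1.65 ± 0.205), Slc6a15 (-1.08 ± 0.185), Slc38a4 (-0.71 ± 0.118) and Slc7a6 (-0.37 ± 0.0727), which fell. Without the day 9 CD73+ array 0 passed (limma; 10 at an unadjusted p under 0.05), with adjusted p from 0.0714 to 0.298 for these 7 genes. Without day 6 CD73+ 2 passed, and without day 6 or day 9 CD73- 1 passed, which was Slc38a5 both times. Under quantile normalization 2 were higher and 5 lower, and Slc7a7 did not pass (adjusted p = 0.052). In CD49d+ against CD73- cells 4 rose and 6 fell, where 7.69% and 5.66% of all genes did (13.3% in all). Slc38a5 (8.99-fold, log2 3.17 ± 0.126), Slc7a7 (1.55 ± 0.21), Slc7a3 (1.44 ± 0.122) and Slc43a2 (0.54 ± 0.121) rose, and Slc7a2 (-1.99 ± 0.205), Slc6a15 (-1.50 ± 0.185), Slc38a4 (-0.75 ± 0.118), Slc6a8 (-0.64 ± 0.107), Slc43a1 (-0.59 ± 0.127) and Slc7a1 (-0.37 ± 0.0733) fell. Here 2 passed without day 9 CD73-, Slc38a5 and Slc7a3, 5 without day 6 CD73- and 6 without day 6 CD49d+.

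Between CD49d+ and CD73+ cells 0 of the 38 transporter genes passed in limma (0.0300% of all genes did, 0.00751% higher and 0.0225% lower). At an unadjusted p under 0.05 stood 7 of the 38, against 24.1% of all genes, so the transporter genes were no more frequent there than genes in general. Slc38a6 came nearest, with 242.4 and 244.7 in CD49d+ and 324.6 and 328.3 in CD73+ cells (log2 -0.42 ± 0.0662, limma, adjusted p = 0.0612). It passed under quantile normalization, with centred arrays and without a term for the day. Slc3a2 was at 5063 and 5103 in CD49d+ against 4317 and 4067 in CD73+ cells (0.28 ± 0.0595, adjusted p = 0.0815), and Slc38a5 at 0.54 ± 0.126 (adjusted p = 0.09). Both pairs of arrays did not overlap, yet neither difference passed.

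Between day 9 and day 6, 0 of 38 transporter genes passed in limma, as did 0.00% of all genes. An unadjusted p under 0.05 was reached by 7 of the 38 and by 11.6% of all genes. The values of these 7 are given as a description. Slc7a3 was higher at day 9 in all 4 populations, by 0.98 in CD49d+, 0.53 in CD73+, 0.85 in CD73- and 0.64 in unsorted cells (0.75 ± 0.0866, limma, adjusted p = 0.113), and passed with centred arrays. Slc7a7 (0.80 ± 0.148), Slc38a5 (0.54 ± 0.0891) and Slc43a3 (0.61 ± 0.135) were higher in 4 of 4 populations as well, and Slc6a15 (-0.51 ± 0.131), Slc7a2 (-0.48 ± 0.145) and Slc1a4 (-0.21 ± 0.0521) lower in all 4. The Slc43a3 difference was small in CD49d+ cells (0.10) and 0.74 to 0.82 in the others. For this comparison the spread is the disagreement among the 4 populations, which are not replicates of a day.

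Against fibroblasts, 4 transporter genes were at least 2-fold higher on all 8 reprogramming arrays, where 4.89% of the 14301 genes above the floor on some array were, and 1 was at least 2-fold lower (5.78%). Of the 59 genes, 42 are among the 14301. Each control is 1 array, so these differences carry no test. The genes above MEF were Slc7a3 (3.62-fold to 18.6-fold), Slc6a15 (4.20-fold to 14.3-fold), Slc7a1 (2.41-fold to 3.35-fold) and the glutamine exchanger Slc1a5 (2.45-fold to 3.21-fold). Slc1a5 had 919.5 in MEF and 2249 to 2948 on the reprogramming arrays, with 2158 in SC4 and 2408 in ESC, so MEF stood below every other array. The probe set not used for Slc1a5 was also lowest in MEF, but by less than 2-fold. It had 178.2 in MEF, 183.4 to 247.5 on the reprogramming arrays and 216.8 in both SC4 and ESC. The gene below MEF was the glutamate carrier Slc1a6, with 467 in MEF and at most 100.7 elsewhere. The lysosomal proton-coupled carrier Slc36a1 had 651.6 in MEF and 291.4 to 330.3 on the reprogramming arrays, which is 1.97-fold to 2.24-fold lower, with 298.2 in SC4 and 314.6 in ESC. Under quantile normalization and with centred arrays 2 genes were at least 2-fold below MEF. The used and the unused probe set of Slc36a4 disagreed against MEF: the one used had 3157 in MEF and 3582 to 4390 on the reprogramming arrays, the other 736.1 in MEF and 432.5 to 584.5.

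ESC were at least 2-fold above MEF for 5 transporter genes (12.0% of all genes) and below for 4 (11.9%). Those above were Slc7a3 (8.27-fold), Slc7a7 (5.80-fold), Slc38a4 (4.20-fold), Slc1a5 (2.62-fold) and Slc38a3, a glutamine carrier, which had 573.1 in ESC and lay at the floor on all 10 other arrays, at least 5.73-fold lower than ESC. Of these 5, Slc7a3 and Slc1a5 were at least 2-fold above MEF on all 8 reprogramming arrays. For Slc1a5 the 2-fold differences of these arrays, ESC and SC4 from MEF hold only for the probe set used. Slc7a7 and Slc38a3 were at least 2-fold below ESC on all 8, where 4.10% of all genes were, and Slc6a15 was at least 2-fold above ESC on all 8 (2.76%). Those lower in ESC were Slc1a6, Slc7a2 (3.45-fold), Slc36a1 (2.07-fold) and Slc7a11 (at least 2.52-fold).

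SC4 was at least 2-fold above MEF for 7 transporter genes (11.0% of all genes) and below for 8 (11.5%). The 7 above were Slc7a3 (16.8-fold), Slc7a11 (16.0-fold), Slc38a5 (12.7-fold), Slc7a7 (4.21-fold), Slc6a15 (2.98-fold), Slc1a5 (2.35-fold) and Slc43a2 (2.02-fold). Slc38a4 (at least 11.2-fold), Slc38a1 (5.34-fold), Slc43a3 (4.46-fold) and Slc1a4 (2.47-fold) were lower. Slc38a1, Slc38a2 and Slc38a4, carriers of glutamine and other neutral amino acids, are consecutive protein-coding genes on chromosome 15 in RefSeq (GRCm38.p6), and they differed from each other in SC4. Slc38a1 had 285.9 in SC4 against 1526 to 2438 on the 10 other arrays. Slc38a4 was at the floor in SC4, against 1121 to 4714 elsewhere. Slc38a2, which lies between them, had 4259 in SC4, within its range of 3940 to 5170. Against ESC, SC4 was at least 2-fold higher for 5 transporter genes (5.42% of all genes), among them Slc38a5 (10.3-fold) and Slc7a2 (2.50-fold), and lower for 7 (7.39%), among them Slc38a4 (at least 47.1-fold) and Slc38a1 (7.93-fold). Against all 8 reprogramming arrays, Slc38a1, Slc38a4 and Slc43a3 were at least 2-fold lower in SC4 (1.42% of all genes) and Slc7a11 at least 2-fold higher (1.15%).

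**Figure D3:**
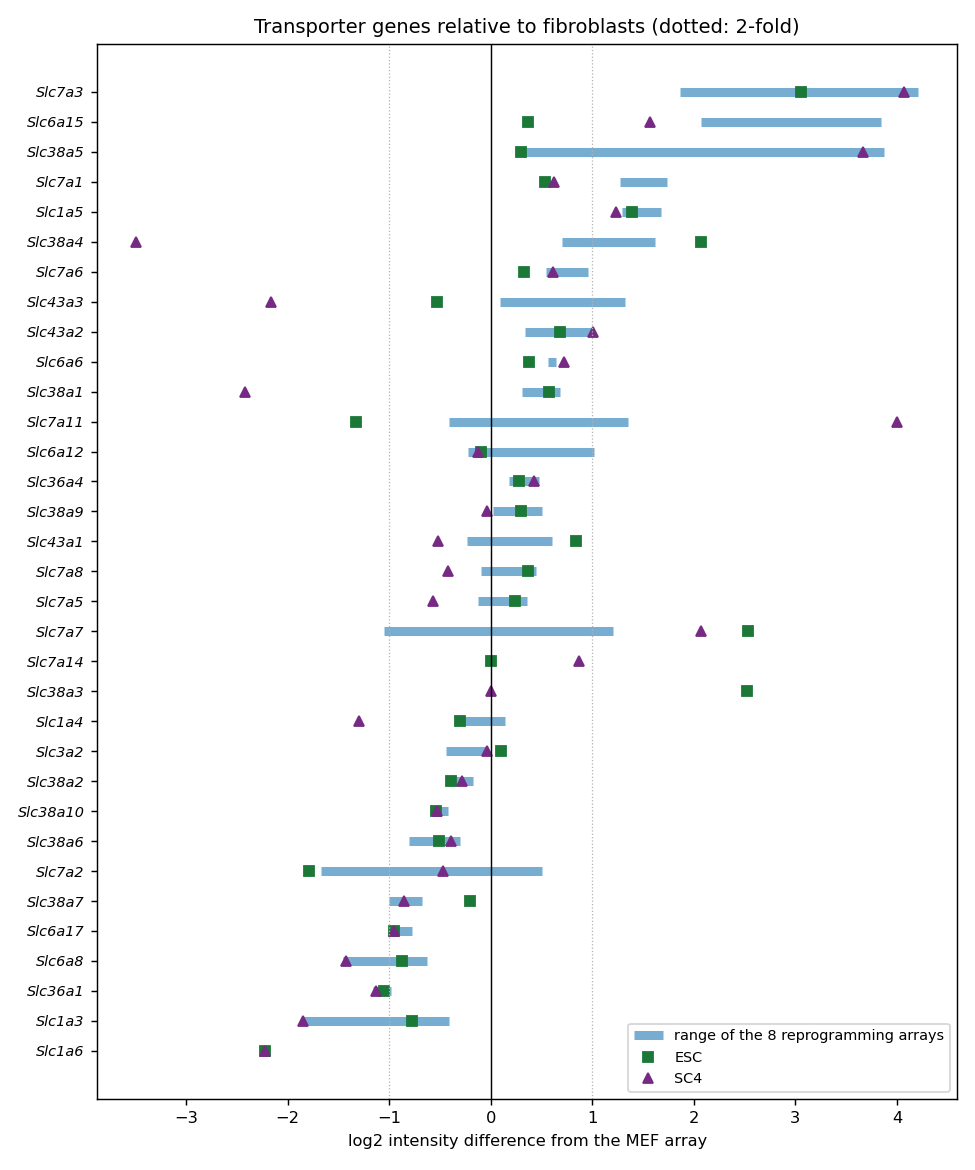
Log2 intensity difference from the MEF array for the transporter genes whose highest array reached 150. Bars are the range of the 8 reprogramming arrays, squares ESC and triangles SC4. Where an array is at the floor the point is a bound. Slc38a4 in SC4 stands at -3.49, a bound, and Slc7a11 in SC4 at 4.00, both outside the bars.

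Several carriers were nearly level on the 8 reprogramming arrays. Slc6a6 had 2390 to 2529 on these arrays, Slc38a2 4006 to 4581, Slc38a10 788.9 to 841.7 and Slc36a1 291.4 to 330.3. Slc38a9, the lysosomal arginine sensor, had 406.8 to 564.2. Slc1a4, an exchanger of alanine, serine and cysteine, had 990.3 to 1159 on poised arrays and 1351 and 1210 in CD73- cells (-0.26 ± 0.0639, adjusted p = 0.0617), and 495.7 in SC4. Slc6a12, a betaine carrier, was highest in unsorted cells, at 331.7 and 379.4, above all sorted arrays (160.5 to 252.7).

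Genes of the pathways around these carriers were read from 5 lists. Of 19 ATF4 and amino acid response genes tested, 2 rose and 1 fell between poised and CD73- cells. Over all genes tested 7.16% rose and 4.85% fell, and for lists this short such counts, here and in the other 4 lists, are given only as a description. Cth, which makes cysteine, had 3349 to 3916 on poised arrays and 1842 and 2282 in CD73- cells (log2 0.80 ± 0.059, limma, adjusted p = 0.00578), with 317.8 in MEF. The stress cofactor Nupr1 (0.38 ± 0.0744) rose and Atf3 (-0.83 ± 0.112) fell. Of 10 serine, glycine and one-carbon genes tested, 0 rose and 1 fell, the mitochondrial folate enzyme Mthfd2 (-0.62 ± 0.126, adjusted p = 0.04), and Phgdh, the first enzyme of serine synthesis, stood at -0.50 ± 0.117 (adjusted p = 0.0561). Of 10 glutathione genes 1 rose, the peroxidase Gpx4 (0.40 ± 0.0861), and 2 fell, the synthesis enzyme Gclc (-0.54 ± 0.0598) and Txnrd1 (-0.36 ± 0.0752). Of 19 genes of lysosomal amino acid sensing 2 rose and 0 fell, the arginine sensor Castor1 (0.90 ± 0.0726, adjusted p = 0.00648) and Sesn3 (0.64 ± 0.132). Of 10 genes of glutamine and branched-chain use 0 rose and 0 fell. The median log2 differences of the lists were -0.0503, -0.35, -0.0791, 0.0017 and -0.0065, in this order.

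Of the 20 amino acid response genes above the floor on some array, 5 were at least 2-fold below MEF on all 8 reprogramming arrays (5.78% of all genes) and 1, Cth, at least 2-fold above (4.89%). The difference between these counts was not tested. Atf5, a relative of ATF4, had 2149 in MEF and 309.2 to 403.1 on the reprogramming arrays. Chac1, which degrades glutathione, had 1009 in MEF and 132.7 to 362.9, Ddit3 had 899.4 and 175.7 to 237.9, and Trib3 536.5 and 129.1 to 188.7. Vldlr had 326.5 in MEF and at most 114.7. Atf4 itself had 734 in MEF and 549.5 to 683.7, and Asns, the asparagine synthetase, 2888 and 2059 to 3815. ESC kept Chac1 (1033) and Ddit3 (558) above the reprogramming arrays. Of the 10 serine, glycine and one-carbon genes, 4 were at least 2-fold above MEF on all 8 arrays (4.89% of all genes), Shmt1 (1126 to 1836, with 110.7 in MEF), Mthfd1, Mthfd1l and Gldc.

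**Figure D4:**
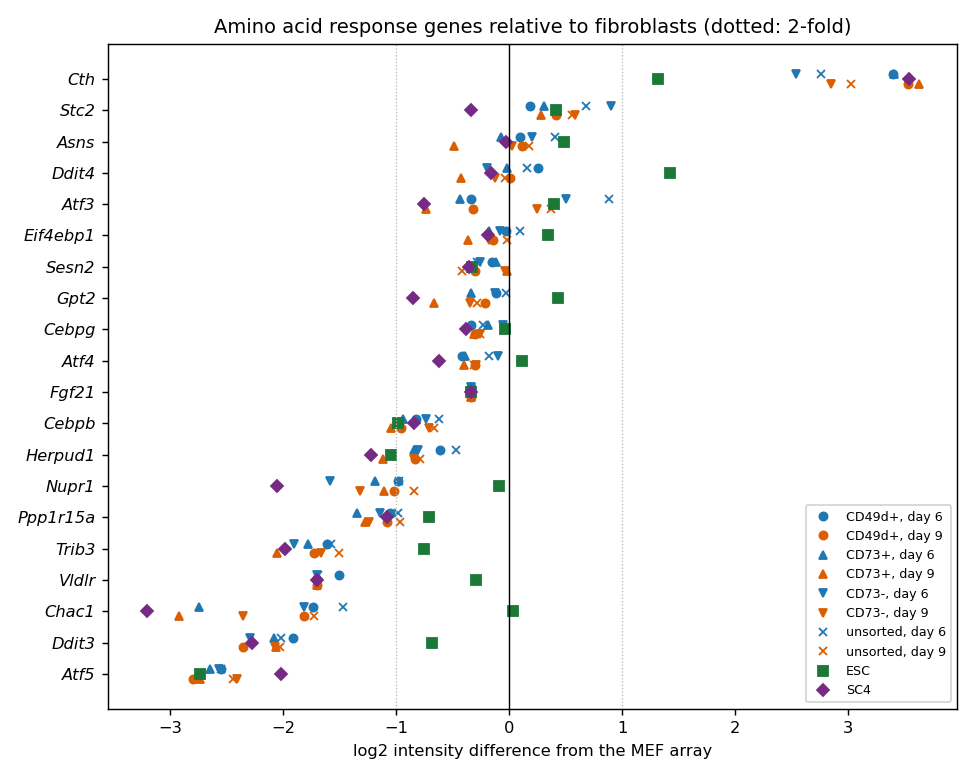
Log2 intensity difference from the MEF array for 20 amino acid response genes, on the 8 reprogramming arrays (small symbols), ESC (squares) and SC4 (diamonds). Atf5, Ddit3, Chac1, Trib3 and Vldlr lie more than 2-fold below MEF on all 8 reprogramming arrays and Cth more than 2-fold above.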

How the data were processed

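The authors deposited linear probe set intensities for 41345 probe sets on 11 arrays, with a floor at 100 that holds 52.14% to 54.31% of each array. Partek is named in the submitters' processing notes. The steps of summarisation, background correction and scaling were not given in the sources used here. Log2 of the deposited intensity was taken and no scaling was added. GEO's platform annotation names 23521 probe sets with 1 symbol, 1814 with several and 16010 with none, and only the first kind was used. Symbols were updated through a RefSeq table (GRCm38.p6). Genes whose highest array exceeded the median of all values (the floor) were kept (14301). The fit took the 13313 of them that left the floor on at least 1 of the 8 reprogramming arrays, with population and day as terms in limma 3.58.1 under R 4.3.3, with 3 residual degrees of freedom and a prior of 2.12. A gene passed at an adjusted p (Benjamini-Hochberg over all 13313) under 0.05. Values after ± are SE. In fits with fewer arrays, genes without residual spread were left out. The fit was tested on simulated data. Each group has 1 array, so the number of arrays limits the precision.

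Genes named with values are those that passed in 1 of the 5 contrasts, whose highest array is at least 4 times the lowest, or that form Slc3 and Slc7 heterodimers, and others were chosen after their values were seen. The members, lists, tests and ATF4 motif were chosen with earlier results of these data known, and the E-box, with it the Slc38a5 window, was added after the values were seen.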

Additional observations from a re-analysis of the deposited data

Results flagged for a closer look

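The neutral amino acid carrier Slc7a8 had both poised populations above CD73- cells at day 6 (mean log2 difference 0.22) and both below at day 9 (-0.22). Slc38a10 had the same signs at a much smaller size, with 0.0609 at day 6 and -0.0144 at day 9. At day 9 its CD49d+ (804.2) and CD73- cells (804.5) were level, with 788.9 in CD73+ cells. The differences between the days were not tested, since each population and day has 1 array. No group has the 4 samples that a search for single outlying samples needs.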

How the results depend on the processing

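The alternatives were quantile normalization, centring each array on its median above the floor, no filter, a filter at 200, the 6 sorted arrays, no term for the day, the mean of all probe sets, and leaving out 1 array at a time. Of the 11 genes between poised and CD73- cells, 6 passed without a filter and 6 without a term for the day, and with the 6 sorted arrays 7 genes passed in all. Leaving out 1 array gave 2 to 13. For CD73+ against CD73- cells 3 passed without a filter and 3 without a day term, and 0 to 8 without 1 array. For CD49d+ against CD73- cells 5 passed without a day term, and 2 to 8 without 1 array. Between CD49d+ and CD73+ cells 1 gene passed under quantile normalization, 1 with centred arrays and 1 without a day term. Between the days 1 passed with centred arrays. Genes at least 2-fold below MEF numbered 2 under quantile normalization and 2 with centred arrays. Without the filter more genes are adjusted over, and without an array fewer residual degrees of freedom remain. For the other settings the cause was not tested. The other counts stayed within 1.5 times, and no called value reversed. Leaving out either unsorted array is the same test as the 6 sorted arrays. Signal at the floor limits 17 genes entirely. The term for the day compares populations within each day. The labels give no replicate numbers, so no other block could be set.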
